A study of Mus musculus with 40 samples.

Results

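Natural killer (NK) cells and cytotoxic T cells kill by releasing granules that hold perforin, which opens the target membrane, and granzymes, proteases that enter through it. The genes followed here (10 of 21826 protein-coding rows in each expression table) were taken by symbol across all sample groups and comprised the granule genes Gzma, Gzmb, Prf1 and Nkg7, the cytokine receptor chain Il2rb, the NK cell receptors Klrb1c, Ncr1, Klrd1 and Klrk1, and the transcription factor Eomes. NK cells in mice carry CD11b, the surface protein used for the sort here, and can therefore enter a gate drawn for myeloid cells.

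The study asked how 7aaRGD, a peptide that blocks integrins, alters the myeloid cells of experimental gliomas. The peptide was delivered into the tumor by an osmotic pump, beside a vehicle (water) and the control peptide 7aaRAE, which lacks the integrin-binding motif, and CD11b+ cells were sorted from the tumor-bearing hemispheres for poly-A RNA sequencing. At 21 days post-implantation (DPI), male C57BL/6 mice with GL261 glioma expressing tdTomato and luciferase were divided into vehicle, 7aaRGD and 7aaRAE groups, with naïve mice as reference (3 samples per group, each pooled from 2 animals). At 28 DPI, single mice with GL261 glioma had received vehicle (n = 4), 7aaRGD (n = 4), the checkpoint antibody anti-PD-1 (n = 3) or 7aaRGD with anti-PD-1 (n = 3), and mice without anti-PD-1 had received IgG; GEO's labels name nude mice for these samples and the study's methods name C57BL/6. U87-MG RFP+ human glioma was grown in Athymic Nude-Foxn1nu mice and treated with vehicle, 7aaRGD or 7aaRAE to 21 DPI (3 samples per group, each from 2 animals). Such mice lack a thymus and make few T cells but keep NK cells. Anti-PD-1 sample 4, combination sample 4 and the naïve nude mice were not analysed here.

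Values are given as RPKM, that is, read counts divided by exon length and library total. Some lie below 0, which this division alone cannot give, so a further step that is not described in the sources used here was applied. The 3 tables were normalized separately, so levels are set side by side across them without a test. The number of sequenced reads per sample is not given in the tables, and the counting error of low values is unknown. The gate was checked by Itgam, which encodes CD11b and was at 51.2 to 67.5 RPKM in the GL261 tumor samples at 21 DPI and at 126 to 195 RPKM in the U87-MG samples. These are bulk samples, in which fewer cells of a type and less RNA per cell cannot be told apart.

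By GENCODE M21 annotation (mm10), Gzma lies on chromosome 13 (113093825 to 113100981, minus strand), Gzmb on chromosome 14 (56258838 to 56262260, minus), Prf1 on chromosome 10 (61297833 to 61304680, plus), Il2rb on chromosome 15 (78479256 to 78495271, minus) and Eomes on chromosome 9 (118478212 to 118486132, plus). Chromosome 7 holds Nkg7 (43437073 to 43438249, plus) and Ncr1 (4337724 to 4345164, plus). The 3 killer-cell lectin-like receptor genes, Klrb1c (128778485 to 128789215, minus), Klrd1 (129591782 to 129598775, plus) and Klrk1 (129610323 to 129623864, minus), lie close together on chromosome 6. Klrb1c overlaps the protein-coding gene Gm44511 on the same strand, so reads could have been lost or split between them and its level is uncertain.

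RUNX and T-box factors are known regulators of cytotoxic lymphocyte genes, and the stretches just before the start of 5 members are shown for these letters. The RefSeq promoter table (GRCm38.p6) held 8 of the 10 members, and Il2rb and Klrd1 were not among them. In the 250 bases before the start, the RUNX core TGTGGT occurred on either strand in 7 of the 8 (all but Eomes), and in 14.0% of all 32851 promoter stretches of that length. The T-box letters GGTGTGA occurred in 1 of the 8 (Nkg7) and in 3.33% of all stretches. The STAT letters TTCNNNGAA occurred in 1 of 8 (7.02% of all), the ETS core GGAA in 5 of 8 (93.4%) and TATAAA in 0 of 8 (12.4%). Other letters and other forms of these motifs were also looked for, and the choice was made with the sequences in view. These are matches of letters and show no binding. Capitals mark TGTGGT or its reverse complement and GGTGTGA, 5′ to 3′ on the strand of the gene.
Gzma, chr13:113100982-113101231, minus strand: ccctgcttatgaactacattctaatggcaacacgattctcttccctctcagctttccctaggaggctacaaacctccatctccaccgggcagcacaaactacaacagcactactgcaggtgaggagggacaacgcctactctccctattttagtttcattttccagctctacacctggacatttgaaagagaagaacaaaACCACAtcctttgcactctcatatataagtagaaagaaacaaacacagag
Gzmb, chr14:56262335-56262584, minus strand: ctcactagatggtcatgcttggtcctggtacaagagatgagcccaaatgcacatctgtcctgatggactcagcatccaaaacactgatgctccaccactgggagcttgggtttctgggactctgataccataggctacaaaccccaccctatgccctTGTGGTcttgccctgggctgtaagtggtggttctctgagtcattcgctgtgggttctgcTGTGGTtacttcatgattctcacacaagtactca
Prf1, chr10:61297586-61297835, plus strand: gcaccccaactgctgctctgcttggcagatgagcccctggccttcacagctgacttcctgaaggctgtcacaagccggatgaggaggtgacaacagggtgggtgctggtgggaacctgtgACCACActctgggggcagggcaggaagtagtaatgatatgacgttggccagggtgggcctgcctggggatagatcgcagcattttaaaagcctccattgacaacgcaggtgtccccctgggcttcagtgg
Ncr1, chr7:4337465-4337714, plus strand: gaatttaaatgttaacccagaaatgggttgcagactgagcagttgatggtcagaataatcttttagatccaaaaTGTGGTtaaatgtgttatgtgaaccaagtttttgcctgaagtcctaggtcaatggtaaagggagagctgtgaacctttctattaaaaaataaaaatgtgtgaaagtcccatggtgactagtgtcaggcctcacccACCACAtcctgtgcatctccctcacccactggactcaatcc
Nkg7, chr7:43436888-43437137, plus strand: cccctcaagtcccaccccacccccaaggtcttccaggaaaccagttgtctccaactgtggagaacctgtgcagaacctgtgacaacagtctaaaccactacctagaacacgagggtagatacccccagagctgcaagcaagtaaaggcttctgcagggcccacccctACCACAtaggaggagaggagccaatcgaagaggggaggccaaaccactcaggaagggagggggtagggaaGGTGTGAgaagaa
Gzmb held the RUNX letters 93 to 88 and 34 to 29 bases before its start, and Ncr1 176 to 171 and 41 to 36 bases before. Gzma held them once, 50 to 45 bases before, and Prf1 once, 130 to 125 bases before. In Nkg7 the T-box letters stood 13 to 7 bases before the start and the RUNX letters 83 to 78 bases before. These starts are those of RefSeq, and the GENCODE positions given above differ from them for some genes. By GENCODE the Nkg7 stretch runs past the start of the gene (43437073), so its T-box letters lie inside the gene. The Gzmb stretch stops short of the GENCODE start (56262260).

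The naïve brain gave almost no signal for 9 of the members, and all 10 were higher in every vehicle-treated GL261 tumor sample than in every naïve sample. Gzma, a tryptase of the granules, was at 0.136, 0.336 and 0.213 RPKM in naïve samples 1 to 3 and at 2.51, 10.3 and 6.58 RPKM in vehicle samples 1 to 3. Gzmb, the granzyme that cleaves caspases, was at 0.0797, 0.0561 and 0.111 RPKM against 3.04, 8.85 and 6.77 RPKM. Klrk1, which encodes the activating receptor NKG2D, was at 0.120, 0.105 and 0.0803 RPKM against 6.30, 8.49 and 10.5 RPKM. Klrd1, which encodes CD94, the partner of the NKG2 receptors, was the exception, with 1.42, 1.88 and 1.80 RPKM in the naïve samples and 3.83, 2.65 and 2.82 RPKM in the vehicle samples. The naïve group was thus the only one of the GL261 groups at 21 DPI in which Klrd1 had the highest mean of the 10 members.

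A gene entered the limma test where its mean reached 1 RPKM (values on the log2(RPKM + 1) scale), and 4 members passed in this comparison. Gzma, Gzmb and Klrk1 had naïve means under 1 RPKM and passed through the vehicle group alone, so the direction of these 3 was set by the filter and their number is no support. On the log2 scale Klrk1 rose by 3.07 (standard error 0.15, adjusted p = 3.93e-07) and Klrd1 by 0.60 (standard error 0.12, adjusted p = 0.00181). Gzmb rose by 2.64 (standard error 0.28, adjusted p = 4.09e-05) and Gzma by 2.45 (standard error 0.36, adjusted p = 0.000308). This is a contrast between whole cell populations: 82.9% of the 9722 genes tested were called, 34.6% as higher and the remainder as lower, and groups did not overlap, with vehicle higher, for 35.6%. Of the calls, 3366 were higher and 4690 lower; scaling by trimmed means of the RPKM values (TMM) moved the median of all genes by 0.282 and gave 4660 higher and 3226 lower, with the 4 members still called higher. The summed level of 10 microglia genes was 17440 to 18040 RPKM in naïve and 1438 to 2107 RPKM in vehicle samples, and the part of that change in population in the members' levels was not tested.

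The 6 members under the filter had the same order of groups. Nkg7, a granule membrane protein, was at 0.135 ± 0.130 RPKM (SD, n = 3) in naïve and 1.85 ± 0.755 in vehicle samples. Il2rb, the chain shared by the IL-2 and IL-15 receptors, was at 0.0625 ± 0.0738 and 1.59 ± 1.02 RPKM, and Prf1 (perforin) at 0.0783 ± 0.0711 and 1.51 ± 0.801 RPKM. The receptor genes Klrb1c (NK1.1) and Ncr1 (NKp46) reached 0.849 ± 0.0807 and 0.453 ± 0.314 RPKM in vehicle samples from 0.0265 ± 0.0326 and 0.0287 ± 0.0187 RPKM. Eomes stayed very low, at 0.0212 ± 0.0213 and 0.0996 ± 0.0371 RPKM. For each of the 6, the exact two-sided permutation test gave p = 0.1, the smallest value that 3 against 3 samples allow.

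At 21 DPI all 8 members tested had a higher mean with 7aaRGD than with vehicle, but none passed the test, and 1 of the 3 7aaRGD samples carried the highest values. Of these 8, Klrb1c had means under 1 RPKM with vehicle and with 7aaRAE. It passed the filter through the 7aaRGD group alone, so its direction is no support. Sample 1 of the 7aaRGD group was the highest of all 12 samples of the table for 9 of the 10 members, all but Klrd1. Gzma was at 23, 12.2 and 8.22 RPKM in 7aaRGD samples 1 to 3, and sample 3 lay below vehicle sample 2 (10.3 RPKM). Nkg7 was at 6.55, 4.59 and 1.96 RPKM with 7aaRGD against 1.02, 2.48 and 2.06 RPKM with vehicle, so the groups overlapped. Prf1 was at 3.80, 2.58 and 1.98 RPKM against 0.873, 2.41 and 1.25 RPKM.

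Among the NK cell receptors, Klrb1c was at 1.36, 1.33 and 1.28 RPKM in the 7aaRGD samples and at 0.892, 0.898 and 0.755 RPKM in the vehicle samples, and Klrd1 at 4.29, 4.74 and 5.31 against 3.83, 2.65 and 2.82 RPKM. For these 2 members every 7aaRGD sample lay above every vehicle sample, as for 12.5% of the 9436 genes tested. Klrb1c, with means of 0.849 RPKM with vehicle and 0.920 RPKM with 7aaRAE, had passed the filter through the 7aaRGD group alone. The log2 difference for Klrd1 was 0.50 with a standard error of 0.12 (limma, adjusted p = 0.168), and for Klrb1c 0.33 with a standard error of 0.10 (adjusted p = 0.254). Klrk1 was at 11.5, 10.2 and 9.42 RPKM with 7aaRGD against 6.30, 8.49 and 10.5 RPKM with vehicle (log2 fold change 0.29, standard error 0.15, adjusted p = 0.427). Gzma, Gzmb and Il2rb had larger changes with larger errors: 1.09 ± 0.52 (standard error), 1.00 ± 0.44 and 0.92 ± 0.39 on the log2 scale. The median over the 8 members was 0.73 against 0.021 over all genes tested, of which 0.148% were called (13 higher, 1 lower); 1278 genes, 4 members among them, had an unadjusted p under 0.05. Ncr1 (1.03, 0.660 and 0.371 RPKM with 7aaRGD; 0.160, 0.785 and 0.415 with vehicle) and Eomes (0.254, 0.200 and 0.139; 0.0814, 0.0752 and 0.142) lay under the filter, with exact permutation p = 0.5 and p = 0.2.

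**Figure D1:**
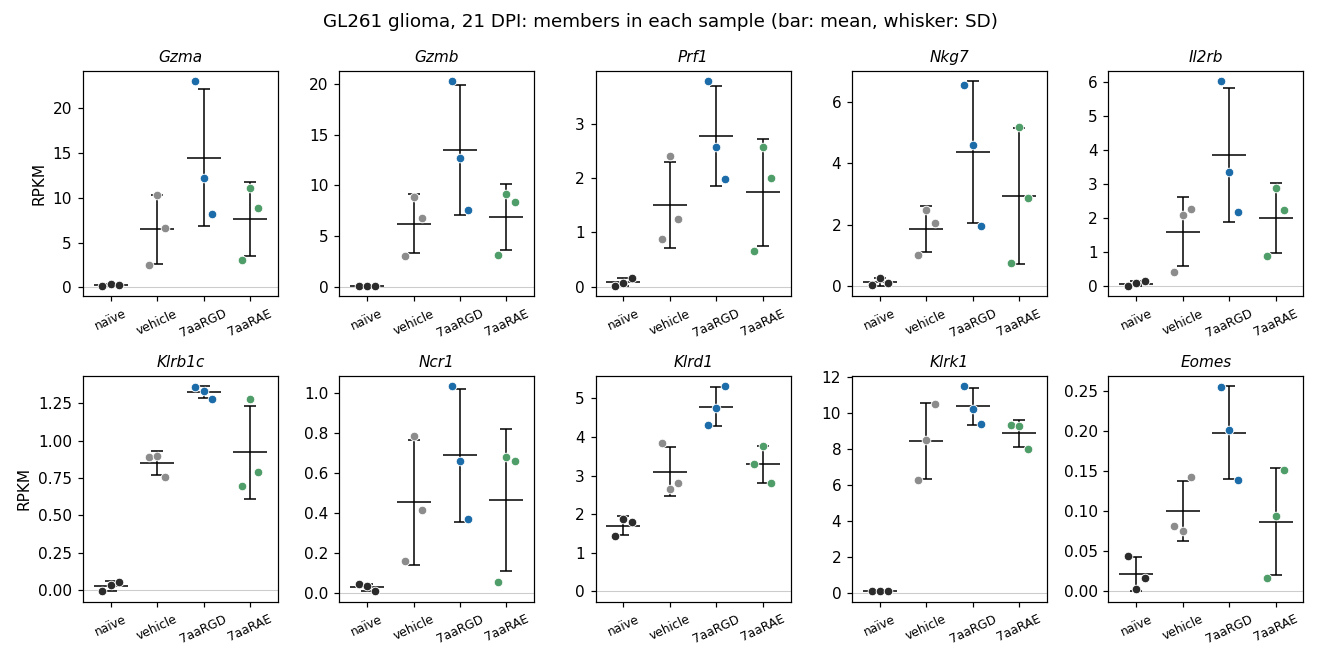
RPKM of each of the 10 members (panels) in the naïve, vehicle, 7aaRGD and 7aaRAE groups of the GL261 glioma at 21 DPI; points are samples, bars are means and whiskers SD (n = 3). The naïve samples lie near 0 except for Klrd1 (1.42 to 1.88 RPKM), and 7aaRGD sample 1 is the highest point in 9 panels.

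With the control peptide the ranges of the members overlapped those of vehicle, but the intervals of most differences were wide. Gzma was at 3.03, 11.0 and 8.89 RPKM in 7aaRAE samples 1 to 3 and Gzmb at 3.16, 9.19 and 8.37 RPKM, ranges that overlapped those of vehicle. Against vehicle, log2 fold changes of the 8 members lay between 0.04 (Klrb1c, 95% interval -0.19 to 0.27) and 0.32 (Nkg7, -0.71 to 1.35). None was called, and 0.0% of the 9436 genes were (600 had an unadjusted p under 0.05).

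The 2 peptides differ in whether they carry the integrin-binding motif and were both delivered by pump to 21 DPI, so their direct contrast was also made. Klrd1 was at 3.30, 3.76 and 2.81 RPKM with 7aaRAE, below each 7aaRGD sample, and Klrb1c and Klrk1 were separated in the same way. This made 3 of the 10 members, and 7.82% of the 9436 genes tested. Klrb1c had passed the filter through the 7aaRGD group alone, so its direction is no support here either. The log2 fold change of Klrd1 for 7aaRGD over 7aaRAE was 0.43 (95% interval 0.16 to 0.71, adjusted p = 0.778 in limma). Klrb1c differed by 0.29 (0.06 to 0.52, adjusted p = 0.778). For Gzma the difference was 0.87 (-0.31 to 2.05) and for Gzmb 0.88 (-0.11 to 1.88), intervals that hold both no change and a more than 2-fold change. None of the 8 members and 0.0% of all genes were called, with 520 genes at an unadjusted p under 0.05.

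At 28 DPI the members were low in vehicle and 7aaRGD samples and high in all 3 combination samples and in 2 of the 3 anti-PD-1 samples. The summed level of the 10 members was 4.55 to 14.4 RPKM over the 4 vehicle samples and 2.87 to 14.0 RPKM over the 4 7aaRGD samples. It was 66.2, 79.5 and 5.89 RPKM in anti-PD-1 samples 1 to 3 and 35.4, 101 and 102 RPKM in combination samples 1 to 3. Anti-PD-1 sample 3 was the lowest of its group for all 10 members and lay at or below the highest vehicle sample for 9 of them, all but Klrk1.

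Gzma was at 0.680, 4.77, 1.22 and 5.88 RPKM in vehicle samples 1 to 4 and at 0.756, 2.01, 5.57 and 0.411 RPKM in 7aaRGD samples 1 to 4. It was at 22.1, 36.9 and 0.813 RPKM with anti-PD-1 and at 11.0, 44.4 and 38.0 RPKM with the combination. Each combination sample was thus above every sample without the antibody, and the anti-PD-1 group spanned both ranges. Gzmb was at 0.402, 3.70, 1.53 and 2.49 RPKM (vehicle), 0.566, 1.39, 2.91 and 0.435 RPKM (7aaRGD), 11.9, 22.2 and 1.08 RPKM (anti-PD-1) and 8.09, 18.8 and 20.5 RPKM (combination). Prf1 was at 0.250, 0.947, 0.611 and 0.684 RPKM with vehicle and at 3.47, 9.38 and 10.1 RPKM with the combination. In the other groups Prf1 was at -0.0349, 0.177, 0.763 and 0.207 RPKM with 7aaRGD, where 1 value lay under the constant of the deposited table, and at 7.15, 5.57 and 0.230 RPKM with anti-PD-1.

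Among the receptors, Ncr1, which in mice is expressed mostly on NK cells, was at 0.137, 0.212, 0.232 and 0.351 RPKM with vehicle, at 3.01, 1.36 and 0.0241 RPKM with anti-PD-1 and at 1.5, 3.72 and 4.26 RPKM with the combination. Klrd1 was at 0.133, 0.186, 0.429 and 0.148 RPKM with vehicle and at 1.07, 2.42 and 1.57 RPKM with the combination. Klrk1 was at 1.43, 1.43, 2.42 and 1.64 RPKM with vehicle, at 5.14, 2.90 and 2.50 RPKM with anti-PD-1 and at 4.23, 4.39 and 6.20 RPKM with the combination. It was the 1 member of 10 for which all 3 anti-PD-1 samples lay above all 4 vehicle samples, as for 15.4% of the 9732 genes tested. Klrb1c overlapped between vehicle and both antibody groups, with 0.661, 1.36, 1.88 and 1.04 RPKM (vehicle), 0.484, 0.396, 0.499 and 0.924 RPKM (7aaRGD), 2.09, 1.81 and 0.399 RPKM (anti-PD-1) and 0.697, 2.26 and 2.82 RPKM (combination). Eomes was at most 0.0612 RPKM in vehicle and at 0.232, 0.492 and 0.574 RPKM in combination samples.

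**Figure D2:**
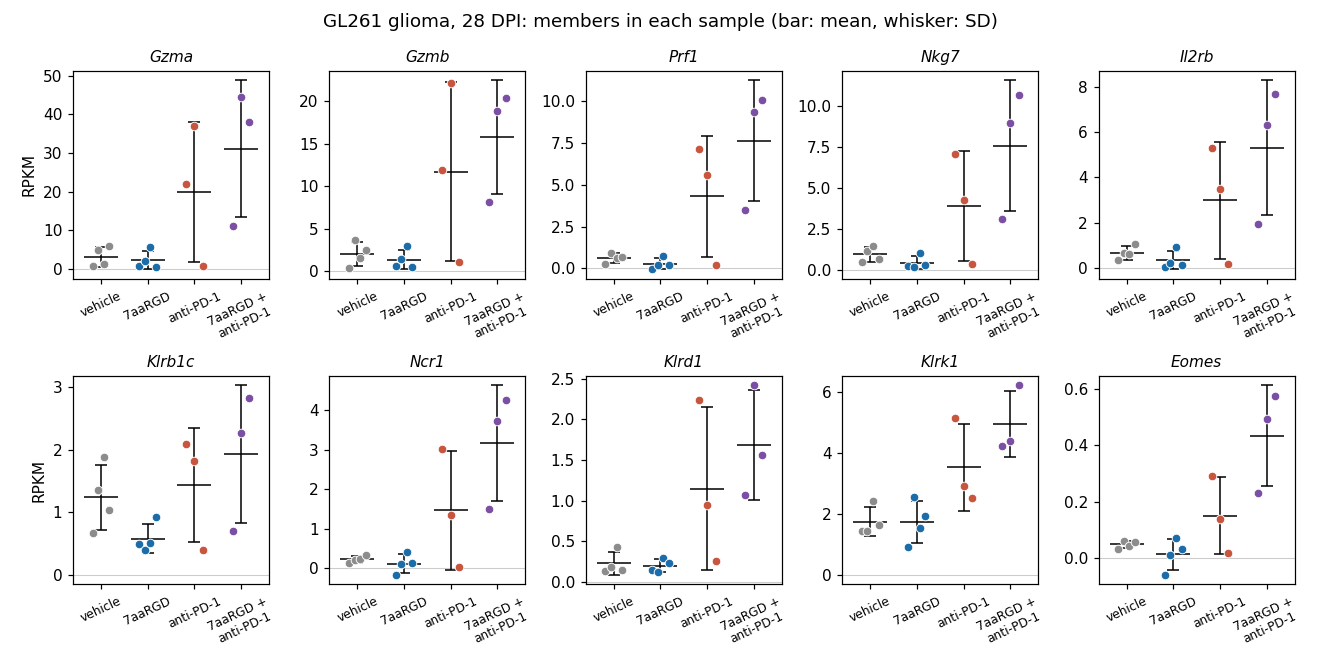
RPKM of each of the 10 members (panels) in the vehicle and 7aaRGD groups (n = 4 each) and the anti-PD-1 and combination groups (n = 3 each) of the GL261 glioma at 28 DPI; points are samples, bars are means and whiskers SD. In most panels 2 anti-PD-1 samples and the combination samples lie above all others, while 1 anti-PD-1 sample (Gzma, 0.813 RPKM) lies with the vehicle samples.

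In the combination group Gzma, Gzmb, Prf1, Nkg7, Il2rb, Ncr1 and Klrk1 rose against vehicle (7 of the 8 members tested), where 17.5% of all 9732 genes were called higher and 43.3% were called in either direction. The log2 fold change was 2.99 for Gzma (standard error 0.91, adjusted p = 0.0177), 2.51 for Gzmb (0.68, adjusted p = 0.00916), 2.32 for Prf1 (0.52, adjusted p = 0.00294) and 2.04 for Nkg7 (0.50, adjusted p = 0.00511). It was 1.80 for Il2rb (0.48, adjusted p = 0.00861), 1.69 for Ncr1 (0.36, adjusted p = 0.00237) and 1.12 for Klrk1 (0.22, adjusted p = 0.00140). Klrb1c was at 0.34 (standard error 0.30, adjusted p = 0.386). Prf1, Nkg7, Il2rb and Ncr1 had means under 1 RPKM with vehicle and with 7aaRGD and passed the filter through the antibody groups alone, so the counts of members called in comparisons with those groups are no support. Groups did not overlap for 9 of the 10 members, all but Klrb1c. With the combination higher, this held for 20.0% of all genes tested, which leave out members under the filter. The 2 members under the filter, Klrd1 and Eomes, had an exact two-sided permutation p of 0.0571, the smallest that 4 against 3 samples allow. Leaving out combination sample 2 or 3 left 5 of the 7 members then tested called.

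Against vehicle, anti-PD-1 alone had 1 member of 8 called, Klrk1 (log2 fold change 0.70, standard error 0.22, adjusted p = 0.0384); 10.8% of all genes were called higher and 23.1% in either direction. Gzmb was at 1.63 (standard error 0.68, adjusted p = 0.0998), Prf1 at 1.33 (0.52, adjusted p = 0.0803) and Gzma at 1.74 (0.91, adjusted p = 0.186). This count rests on single samples: without anti-PD-1 sample 3, 7 of the 8 members were called, with Gzma at 3.08 on the log2 scale, and without anti-PD-1 sample 1 or 2, or vehicle sample 1, 2 or 4, none was.

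The combination was not separated from anti-PD-1 alone by any member. Differences were 1.25 for Gzma (standard error 0.98, adjusted p = 0.580), 0.99 for Prf1 (0.55, adjusted p = 0.428) and 0.89 for Ncr1 (0.39, adjusted p = 0.298), and 0.0411% of all genes were called. Without anti-PD-1 sample 3 the difference for Gzma became -0.09, for Gzmb -0.14 and for Klrb1c -0.09, while the other 5 members lay between 0.11 (Il2rb) and 0.36 (Ncr1). The interaction of the 2 treatments, that is, whether the effect of 7aaRGD differed with and without the antibody, was 1.65 for Gzma (standard error 1.29, adjusted p = 0.763) and 1.46 for Nkg7 (0.71, adjusted p = 0.617), with no member and 0.0% of genes called; 794 genes had an unadjusted p under 0.05.

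Against 7aaRGD alone the combination had all 8 members tested called higher, where 13% of all genes were called higher and 36.6% in either direction. These calls comprised 1268 genes higher and 2292 lower, and 1732 and 1571 after TMM scaling. The log2 fold change was 3.39 for Gzma (standard error 0.91, adjusted p = 0.0114), 2.68 for Prf1 (0.52, adjusted p = 0.00164), 1.15 for Klrk1 (0.22, adjusted p = 0.00171) and 0.82 for Klrb1c (0.30, adjusted p = 0.0463). The call of Klrb1c rests on single samples: with each sample left out in turn it was kept in 2 of 7 fits, and its log2 fold change lay between 0.59 and 1.17.

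For 7aaRGD alone at 28 DPI, the 8 members had log2 fold changes against vehicle between -0.49 (Klrb1c, standard error 0.28) and -0.03 (Klrk1, 0.21), all below 0 and none called. Adjusted p-values lay between 0.434 and 0.969, and 0.647% of all genes were called (12 higher and 51 lower; 4 and 95 after TMM scaling). At 21 DPI the 8 members then tested all lay above 0, where Klrb1c had passed the filter through the 7aaRGD group alone. The tables differ in day, pooling and normalization and the difference between the days was not tested.

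**Figure D3:**
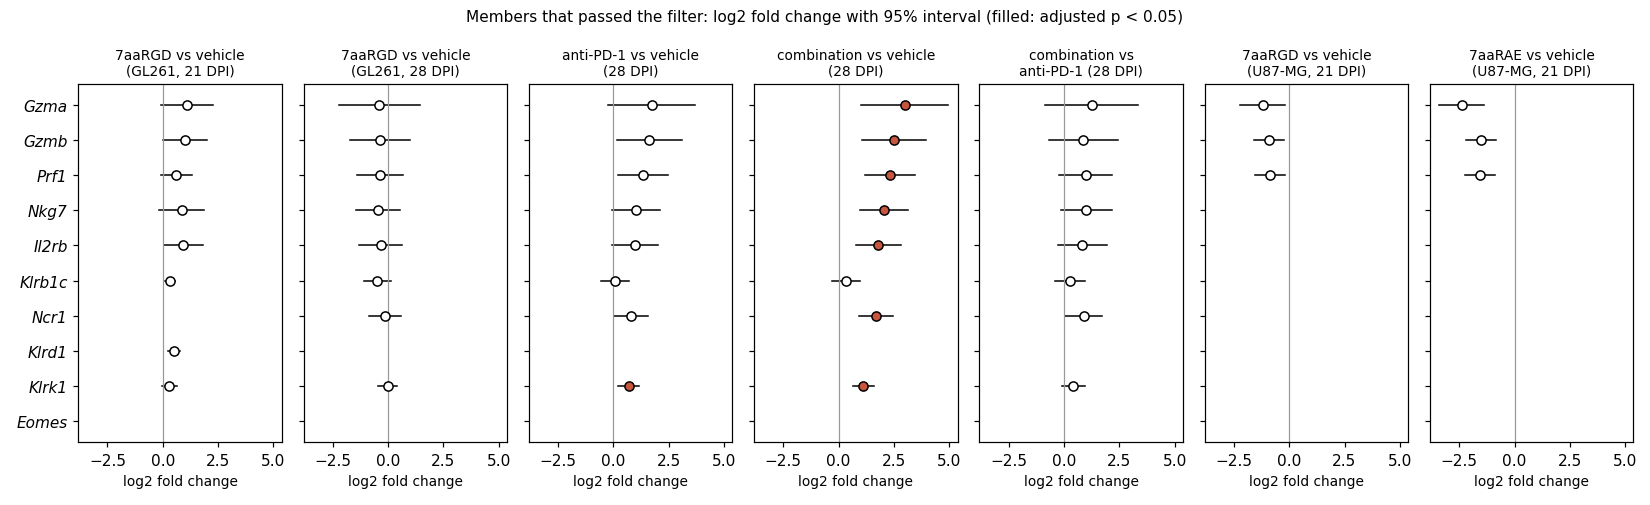
Log2 fold change (horizontal axis, log2(RPKM + 1) scale) of the members that passed the filter in 7 of the comparisons (panels: 7aaRGD against vehicle in each of the 3 tables, 7aaRAE against vehicle in U87-MG, and at 28 DPI anti-PD-1 against vehicle and the combination against vehicle and anti-PD-1), with 95% intervals; filled points have an adjusted p under 0.05. In these panels, which leave out, among others, the comparisons with naïve mice and of the combination with 7aaRGD alone, filled points appear for Klrk1 with anti-PD-1 (0.70) and for 7 members with the combination against vehicle (1.12 to 2.99).

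In U87-MG tumors of nude mice the order was vehicle, then 7aaRGD, then 7aaRAE, for the mean of each of the 10 members. The columns of this table carry the group but not the sample number, so values are given in ascending order. Vehicle samples held Gzma at 4.07, 5.50 and 11.6 RPKM, 7aaRGD samples at 0.724, 3.24 and 3.68 RPKM and 7aaRAE samples at 0.104, 0.240 and 1.13 RPKM. Prf1 was at 1.56, 2.40 and 3.69 RPKM, at 0.191, 1.23 and 1.52 RPKM and at 0.0247, 0.108 and 0.372 RPKM. Ncr1 was at 0.654, 0.924 and 1.80 RPKM, at 0.235, 0.310 and 0.500 RPKM and at -0.0187, 0.0754 and 0.178 RPKM. For these 3 members the vehicle samples did not overlap either peptide group, and one vehicle sample was the highest of all 9 samples of the table for all 10 members.

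Every 7aaRAE sample lay below every vehicle sample for 9 of the 10 members, all but Klrb1c, as for 9.46% of the 9659 genes tested. The count includes members under the filter, which are not among the genes tested. With 7aaRGD this held for 3 members (Gzma, Prf1 and Ncr1) and for 6.4% of all genes. Gzmb, in the order vehicle, 7aaRGD, 7aaRAE, was at 1.25, 2.68 and 4.06 RPKM, at 0.277, 1.05 and 1.30 RPKM and at 0.0870, 0.265 and 0.309 RPKM. Nkg7 averaged 1.86 ± 1.15, 0.668 ± 0.421 and 0.194 ± 0.214 RPKM in the same order of groups (SD, n = 3), and Il2rb at 1.13 ± 0.620, 0.512 ± 0.287 and 0.116 ± 0.121 RPKM. Only Gzma, Gzmb and Prf1 passed the filter, and none was called.

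For 7aaRAE against vehicle in limma, the log2 difference was -2.38 for Gzma (95% interval -3.40 to -1.37), -1.51 for Gzmb (-2.19 to -0.84) and -1.57 for Prf1 (-2.25 to -0.89), each with an unadjusted p under 0.001. Gzmb and Prf1 had means under 1 RPKM with both peptides. They passed the filter through the vehicle group alone, so the direction of their differences from vehicle is no support. The limma adjusted p was 0.187 for Gzma and Prf1 and 0.201 for Gzmb, and 0.0104% of all genes were called, with 746 at an unadjusted p under 0.05. Fitted on the groups compared alone, 1 of 4 members tested was called. With 7aaRAE every member had a mean under 1 RPKM, so members passed that filter through the vehicle group alone. For 7aaRGD against vehicle the values were -1.20 (-2.22 to -0.19), -0.93 (-1.61 to -0.26) and -0.87 (-1.55 to -0.19) in the same order of genes, each with an adjusted p of 0.941 and with 0.0% of genes called (364 at an unadjusted p under 0.05). Between the peptides, 7aaRGD over 7aaRAE was at 1.18 for Gzma (0.17 to 2.20), 0.58 for Gzmb (-0.09 to 1.26) and 0.70 for Prf1 (0.03 to 1.38), each with an adjusted p of 1.00, with 0.0% of genes called and 326 at an unadjusted p under 0.05. The 7 members under the filter reached an exact permutation p of 0.1, the smallest possible, for 7aaRAE against vehicle in all but Klrb1c (p = 0.2).

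**Figure D4:**
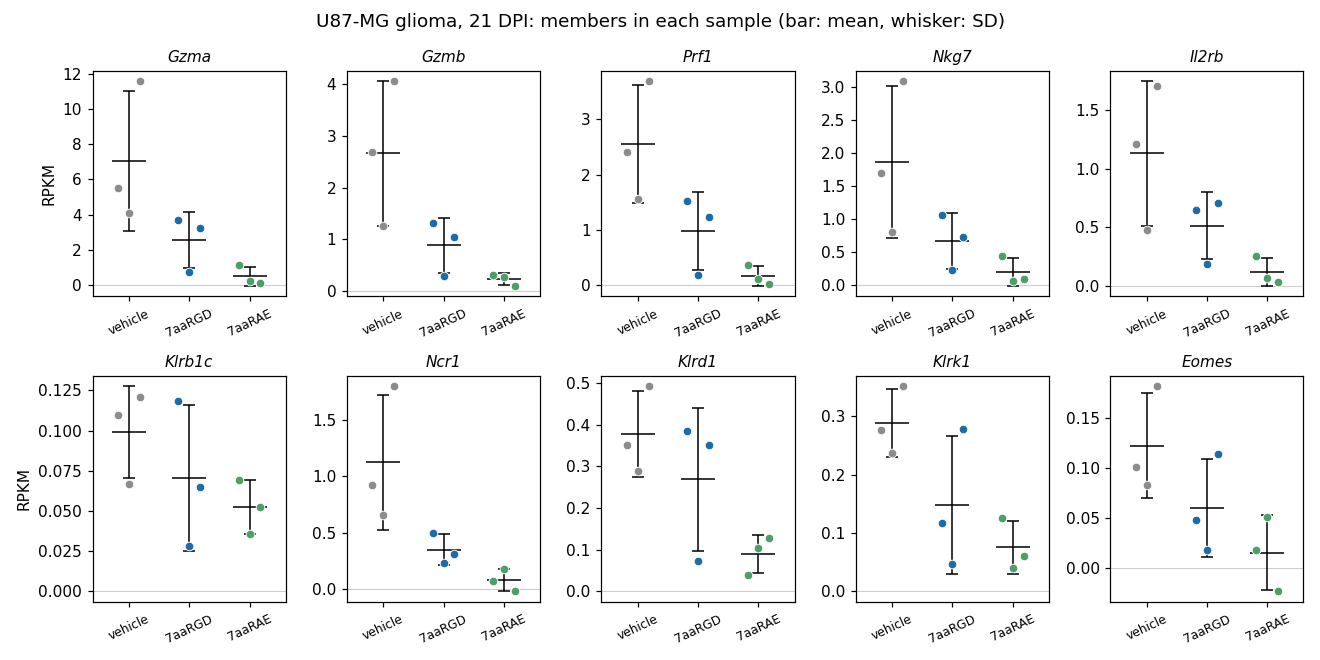
RPKM of each of the 10 members (panels) in the vehicle, 7aaRGD and 7aaRAE groups of U87-MG glioma in nude mice at 21 DPI; points are samples, bars are means and whiskers SD (n = 3). Means are ordered vehicle, 7aaRGD, 7aaRAE from high to low in every panel (Gzma 7.06, 2.55 and 0.492 RPKM), and one vehicle sample is the highest point in each.

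The proportions of the members to each other varied between samples. In the GL261 vehicle samples at 21 DPI Klrk1 was 21.8 to 32.9% of the summed level of the 10 members, and in the U87-MG vehicle samples 1.30 to 2.50%. Klrk1 was at most 0.351 RPKM and Klrb1c at most 0.121 RPKM in any U87-MG sample, while Gzma reached 11.6 RPKM there. The 2 granzymes made up 29.1 to 49.1% and 53.6 to 57.8% of the sum in the same groups. The ratio of Gzma to Gzmb was 0.825 to 1.20 in the 9 GL261 tumor samples at 21 DPI, 0.751 to 2.36 over the 14 GL261 samples at 28 DPI, 2.05 to 3.25 in the U87-MG vehicle samples, 2.61 to 3.09 with 7aaRGD and 0.903 to 3.66 with 7aaRAE, so the models overlapped. The share of Klrk1 also varied within the GL261 model: at 28 DPI it was 9.87 to 31.3% with vehicle, 3.64 to 42.6% with anti-PD-1 and 4.34 to 12% with the combination. Strain, tumor and normalization differ between these tables together and cannot be told apart.

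Within each table the members moved together over samples. The median Pearson correlation of log2(RPKM + 1) over the 45 pairs of members was 0.895 over the 12 GL261 samples at 21 DPI, 0.914 over the 14 samples at 28 DPI and 0.887 over the 9 U87-MG samples; these points share group differences and libraries and are a description. The member with the lowest correlation with the mean of the others was Klrd1 at 21 DPI (0.799) and Klrb1c at 28 DPI (0.791) and in U87-MG tumors (0.821). Gimap4, a GTPase of lymphocytes, was among the 5 genes most like the members' mean profile both at 21 DPI (r = 0.969 over 12 samples) and at 28 DPI (r = 0.993 over 14 samples), where its mean was 0.413 ± 0.143 RPKM with vehicle and 2.95 ± 1.45 with the combination. The other 4 were Dut (0.975), Wbp11 (0.967), Metrn (0.96) and Sik3 (0.959) at 21 DPI and Spn (0.934), Bend6 (0.929), Serpinb6b (0.924) and Ramp3 (0.922) at 28 DPI. In U87-MG tumors they were Npepps (0.952), Iqce (0.951), Bloc1s1 (0.925), Ubap2 (0.907) and Ptpn6 (0.906) over 9 samples.

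Cytotoxic T cells express many of the same genes, so T cell genes were read beside them. The summed level of 12 T cell genes was 0.724 to 4.94 RPKM in vehicle, 5.11 to 11.6 RPKM in 7aaRGD and 1.97 to 6.66 RPKM in 7aaRAE samples at 21 DPI, and the 7aaRGD sample with the highest members had the highest T cell sum. Cd3e, a chain of the T cell receptor complex, was at -0.044 to 0.36 RPKM with vehicle and 0.390 to 0.953 RPKM with 7aaRGD, and Cd8a at 0.448 to 1.32 RPKM with 7aaRGD. Groups did not overlap, with 7aaRGD higher, for 12.5% of all genes tested. Only 1 of the 12 T cell genes passed the filter for 7aaRGD against vehicle at 21 DPI, and it was not called (log2 fold change 0.49). At 28 DPI none passed. At 28 DPI the T cell sum was 1.33 to 2.11 RPKM with vehicle, 1.32 to 5.10 with anti-PD-1 and 3.86 to 5.82 with the combination, where Cd3e was at 0.150 to 0.404 RPKM and Cd8a at 0.0510 to 0.509 RPKM. In U87-MG vehicle samples it was 0.964 to 1.06 RPKM, with Cd3e and Cd8a below 0.001 RPKM, beside Gzma of 4.07 to 11.6 RPKM. The summed level of 8 monocyte and macrophage genes also differed at 28 DPI, with 2677 to 3206 RPKM with vehicle, 4097 to 6278 with anti-PD-1 and 5592 to 7446 with the combination. The part of T cells and of a changed myeloid population in the members' levels was not tested.

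**Figure D5:**
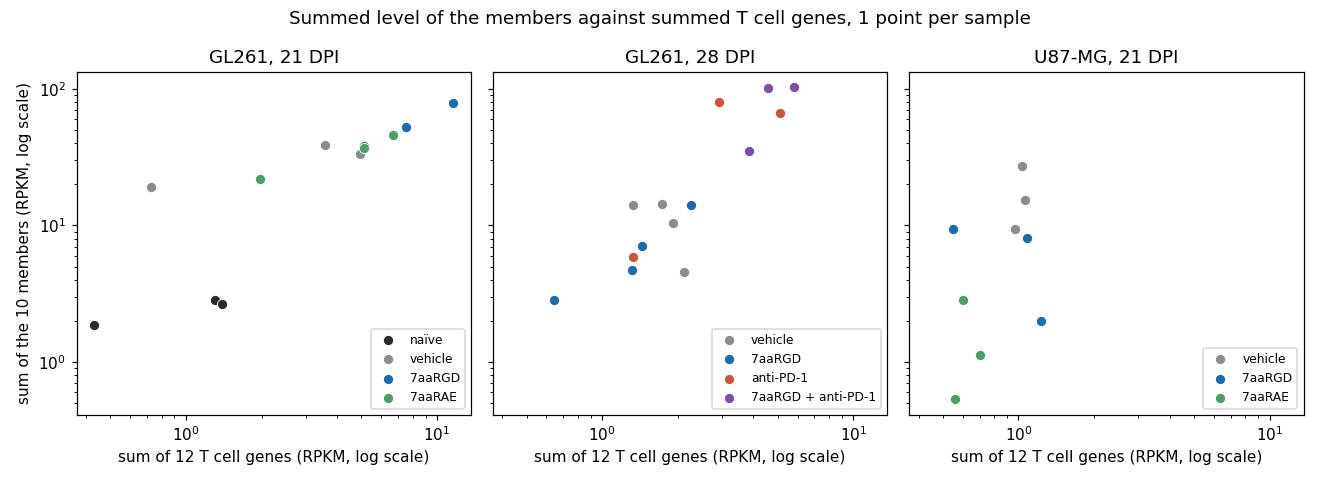
Summed RPKM of the 10 members (vertical, log scale) against summed RPKM of 12 T cell genes (horizontal, log scale) in each sample of the 3 tables (panels), 1 point per sample. Both sums are highest in the same samples of the GL261 tables, while in the U87-MG table the members span 0.535 to 27.1 RPKM over T cell sums of 0.547 to 1.23 RPKM.

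Other genes of the pathway were read from lists by role. Their counts stand beside high shares of all genes tested. In the naïve comparison 82.9% of all genes were called, 34.6% as higher. Against vehicle, 23.1% were called with anti-PD-1 (10.8% as higher) and 43.3% with the combination (17.5% as higher). Against 7aaRGD alone the combination had 36.6% called in either direction. Whether the lists differ from these shares was not tested. Some list genes stood far above Ncr1 (0.233 RPKM) in vehicle samples at 28 DPI, such as Cd244a (12.1), Klrb1b (16.2) and Runx3 (58.6), while others lay under the filter. In these bulk samples changes of the list genes cannot be assigned to NK cells, and which cells held them was not tested. Of 27 further NK cell surface receptors only 6 passed the filter in the naïve comparison, all 6 of them called higher with tumor: Slamf7, a receptor also found on myeloid cells, rose from 1.49 ± 0.216 to 59.3 ± 8.57 RPKM and Klrb1b, an inhibitory receptor, from 0.819 ± 0.0531 to 17.5 ± 1.65 RPKM. Klrb1b, Cd244a (0.464 RPKM), Klri1 (0.286) and Cd7 (0.187) had naïve means under 1 RPKM. They passed through the vehicle group alone, so the count of receptors called higher is no support. Stx11, Il12rb1 and Runx3, among other genes of the lists below, passed in the same way. At 28 DPI 4 of the 27 were tested. With anti-PD-1 2 were called higher, Slamf7 (log2 fold change 0.86) and Ly9 (0.84). With the combination 2 were higher and 1 lower than vehicle: Slamf7 rose by 1.06 on the log2 scale, and Cd244a, which encodes 2B4, fell from 12.1 ± 2.14 to 5.59 ± 1.87 RPKM (adjusted p = 0.00277). Against 7aaRGD alone the combination had 3 higher and 1 lower, with Slamf7 at 1.21 and Cd244a at -1.16.

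Of 18 granule proteins and exocytosis genes, 9 were tested in the naïve comparison, 8 higher and 1 lower; Stx11, a syntaxin of granule fusion, rose by 3.52 and Srgn, the granule proteoglycan serglycin, by 3.28 on the log2 scale. With anti-PD-1 4 of 9 were higher, among them Stx11 (0.92) and Serpinb9 (0.92), the inhibitor that protects cells from granzyme B. With the combination 5 were higher and 2 lower than vehicle, where 17.5% of all genes were called higher and 43.3% in either direction. Serpinb9 went from 3.12 ± 0.163 to 10.3 ± 1.97 RPKM (log2 fold change 1.45, adjusted p = 1.92e-06) and Stx11 from 2.55 ± 0.451 to 7.11 ± 1.26 RPKM. The split was again 5 and 2 against 7aaRGD, with Serpinb6b at 1.33 and Serpinb9 at 1.32. Serpinb6b had means under 1 RPKM with vehicle and 7aaRGD and passed the filter through the antibody groups alone.

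Of 11 death ligands and effector cytokines, 6 were tested in the naïve comparison and 4 were higher, led by the chemokine Ccl5 (1.60 ± 0.611 to 457 ± 161 RPKM) and by Tnf (5.20 ± 0.893 to 20.5 ± 0.218 RPKM). At 28 DPI 3 of 6 were higher with anti-PD-1, with Ccl5 at 1.34 and Tnf at 1.11 on the log2 scale, and 5 of 6 with the combination, where Ccl5 went from 165 ± 72.4 to 614 ± 124 RPKM (log2 fold change 1.97, adjusted p = 0.000512) and Tnf from 13.8 ± 4.75 to 41.2 ± 13.2 RPKM. Against 7aaRGD 3 of 6 were higher, Ccl5 (2.38) and Ltb (0.79) the most.

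Among 13 cytokine receptors and partners of Il2rb, 12 were tested in the naïve comparison, with 8 higher and 3 lower; Il2rg, the common chain that pairs with Il2rb, rose by 4.69 and Il12rb1 by 3.77 on the log2 scale. At 28 DPI 5 of 11 were higher with anti-PD-1 and 7 of 11 with the combination, whether set against vehicle or 7aaRGD. Il12rb2, a chain of the IL-12 receptor, went from 1.39 ± 0.220 RPKM with vehicle to 3.47 ± 1.03 with anti-PD-1 and 4.80 ± 0.232 with the combination (log2 fold change 1.29, adjusted p = 1.64e-05), and Il2rg from 36.4 ± 2.36 to 73.1 ± 13.4 and 84.1 ± 6.36 RPKM. Against 7aaRGD they were at 1.52 and 1.18. Il21r was the 1 gene of the pathway lists called with 7aaRGD alone at 28 DPI (30.6 ± 0.765 to 40.0 ± 2.31 RPKM, log2 fold change 0.38, adjusted p = 0.0318, and 0.0601 after TMM scaling). Il15ra, which presents IL-15 to Il2rb, was the 1 gene called in the U87-MG table (1.78 ± 0.151 with vehicle, 5.96 ± 0.507 with 7aaRAE, log2 fold change 1.32, adjusted p = 0.00332).

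The adaptors and transcription factors did not move in 1 direction. Of 16 adaptors and kinases, 8 were tested in the naïve comparison, 4 higher and 3 lower, with Sh2d1b1 (EAT-2) at 2.01 and the kinase Fyn at 1.63. With anti-PD-1 3 were higher and 1 lower, with Fyn at 0.46 and Hcst, the DAP10 adaptor of NKG2D, at -0.57. With the combination 3 were higher and 4 lower than vehicle, where 43.3% of all genes were called in either direction. Hcst fell from 19.1 ± 1.62 to 10.5 ± 0.878 RPKM (log2 fold change -0.81, adjusted p = 0.000242). Klrk1, the receptor it serves, rose in the same samples from a lower level, 1.73 ± 0.474 RPKM with vehicle and 4.94 ± 1.09 with the combination. In bulk samples the RNA of receptor and adaptor need not come from the same cells, and which cells held it was not tested. Sh2d1b1 fell from 15.9 ± 3.03 to 6.60 ± 1.76 RPKM. Against 7aaRGD 2 were higher and 2 lower, with Sh2d1b1 at -0.82 and Hcst at -0.43 (adjusted p = 0.0169, and 0.0535 after TMM scaling).

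Of 14 transcription factors other than Eomes, 6 were tested in the naïve comparison, 5 higher and 1 lower; Runx3 rose from 0.840 ± 0.135 to 59.8 ± 10.3 RPKM and Nfil3 from 5.50 ± 1.21 to 91.0 ± 13.7 RPKM. Zeb2 was the 1 called with anti-PD-1 (0.28). With the combination Zeb2 was higher (0.44) and Runx3 lower, from 58.6 ± 8.63 to 34.1 ± 3.16 RPKM (log2 fold change -0.76, adjusted p = 0.0079). Against 7aaRGD 3 were higher and 1 lower, with Nfil3 at 1.01 and Id2 at -0.69.

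Of 10 genes listed as ligands of the member receptors or as class I genes, 4 were tested in the naïve comparison and 3 were higher. H2-K1 (3.28) and H2-D1 (3.14) led, although reads of these related genes may be split between copies. Both stand in the list as class I genes and not as ligands of a member. At 28 DPI 3 of 5 were higher with anti-PD-1 and 4 of 5 with the combination. Il15, the ligand of the receptor that holds Il2rb, went from 1.72 ± 0.445 RPKM with vehicle to 2.78 ± 0.327 with anti-PD-1 and 4.32 ± 0.547 with the combination (log2 fold change 0.98, adjusted p = 3.74e-05). H2-T23, which encodes Qa-1, the ligand of CD94 with NKG2A, was at 172 ± 13.2, 259 ± 43.2 and 273 ± 35.0 RPKM. Against 7aaRGD 3 of 5 were higher, with Il15 at 0.94 and H2-T23 at 0.63. The lists had no call with 7aaRGD or 7aaRAE at 21 DPI in the GL261 model and none with 7aaRGD in the U87-MG model.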

How the data were processed

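CD11b+ cells were sorted from hemispheres of mice and sequenced as poly-A RNA from stranded libraries. Per the labels and the study's methods, reads were trimmed with Trimmomatic, aligned with STAR to mm10 and counted with HTSeq-count (0.11.1). The authors deposited 3 tables of RPKM values to which a constant of 2 had been added, and the constant was subtracted here. Many rows lie exactly at the constant and some under it, and the residuals between replicates show a further step that is not described in the sources used here; depth is unknown. The study's own test was NOISeq.

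Low genes (mean under 1 RPKM over the samples of a fit) were set aside, and the remaining protein-coding genes were tested with limma 3.58.1 (R 4.3.3) on log2(RPKM + 1), with an intensity trend and Benjamini-Hochberg adjustment over all genes tested, at 0.05. Fold changes on this scale understate the change of low genes. Members under the filter were given an exact two-sided permutation test in SciPy 1.17.1. Counts of members whose groups did not overlap include members under the filter, while the shares beside them are over genes tested. In all 13 comparisons were made. The vehicle and naïve groups were fitted alone, and other comparisons with all treated groups of their table. Intervals are 95%. On simulated data, 187 of 200 changed genes were recovered for 7aaRGD against vehicle at 21 DPI in GL261 (9436 genes), 191 of 200 at 28 DPI (9732 genes) and 170 of 200 in U87-MG (9659 genes), each with 10 false calls. These are medians over repeated draws, with randomly drawn genes shifted by 1 on the log2 scale and independent normal noise. They do not show how often members with larger errors would be called. At 21 DPI Gzma (1.09, standard error 0.52) and Gzmb (1.00, 0.44) were not called with 7aaRGD against vehicle.

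The members and lists were chosen with earlier results of these data known. Named beside the 10 members were, in each list and comparison, the 2 called genes with the largest log2 fold change, and in each table the 5 genes most correlated with the members' mean profile. T cell, B cell, neutrophil, microglia, monocyte, dendritic and myeloid markers were summed; B cell genes summed to 20.8 to 32.3 RPKM in the 28 DPI groups, neutrophil genes to 120 to 393, dendritic cell genes to 3.51 to 8.49 with vehicle and 20.2 to 25.0 with the combination, and the 5 myeloid sort genes to 2533 to 2958. Samples at 28 DPI are single mice and the others pools, and p-values measure the spread between them. Alternatives were other pseudocounts, filters, TMM scaling, groups fitted, a replicate block and leaving out each sample.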

Additional observations from a re-analysis of the deposited data

How the results depend on the processing

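Of the counts of members called, 169 alternatives stayed within 1.5 times of the main count and 15 did not. Against naïve, vehicle had 10 members called with no filter (10 tested) and 7 with all groups of the table fitted (7 tested); no member passed a filter of 5 RPKM. With anti-PD-1 the count of 1 became 0 with no filter, at 5 RPKM, with the replicate block and with 1 residual degree of freedom less (chosen after seeing the data), and lay between 0 and 7 with each sample left out. At 5 RPKM, 2 of 2 members tested were called for the combination against vehicle and 2 of 2 against 7aaRGD. In U87-MG, 7aaRAE against vehicle had 1 called of 4 when only those groups were fitted, all of which passed the filter through the vehicle group alone. Fewer or more genes tested set the counts under other filters; elsewhere the cause was not tested.

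Directions reversed only when a sample was left out. For 7aaRAE against vehicle at 21 DPI the log2 fold change then lay between -0.24 and 0.70 for Gzma, -0.25 and 0.53 for Gzmb, -0.12 and 0.43 for Prf1, -0.15 and 0.55 for Il2rb, -0.092 and 0.81 for Nkg7, -0.086 and 0.25 for Klrk1 and -0.008 and 0.20 for Klrd1. At 28 DPI it lay between -0.16 and 0.14 for Klrk1 (7aaRGD against vehicle) and -0.14 and 0.43 for Klrb1c (anti-PD-1 against vehicle). For the combination against anti-PD-1 it lay between -0.093 and 2.10 for Gzma, -0.14 and 1.60 for Gzmb and -0.094 and 0.62 for Klrb1c.

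Few same-numbered samples deviated alike: their deviations correlated above 0.1 in 1 of 9 pairs at 21 DPI and 3 of 19 at 28 DPI. Negative correlations reached -0.775 at 21 DPI and -0.499 at 28 DPI. Because the residuals carry a processing step that is not described, this check cannot decide whether the replicate numbers pair the samples. With the replicate block, 4 members were called for vehicle against naïve, 7 for the combination against vehicle and 7 against 7aaRGD, and 0 in the other GL261 comparisons. No paired analysis was possible for U87-MG because its columns carry no sample number.

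Counts over all genes moved more. For 7aaRGD against vehicle at 21 DPI, 14 genes became 0 with TMM scaling, a pseudocount of 0.1, 5 RPKM, the block or 1 residual degree of freedom less, 1 with only those groups and 41 with no filter, and lay between 0 and 120 with a sample left out. At 28 DPI 63 genes became 99 with TMM, 39 with no filter and 0 with only those groups, the block or 1 residual degree of freedom less, and 0 to 1 with a sample left out. For the combination against anti-PD-1, 4 genes (2 higher and 2 lower; 3 and 1 with TMM) became 0 to 26. For 7aaRGD against 7aaRAE at 21 DPI, 0 became 7 with no filter and 4 with only those groups. For 7aaRAE in U87-MG, 1 became 4 with TMM and 32 with only those groups. Low members are limited by an unknown depth.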
